A study of Mus musculus with 6 samples.

Results

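Heparan sulphate proteoglycans are proteins that carry long sulphated sugar chains, and this account follows the transcripts of 10 of their core proteins in the embryonic mouse heart. The 10 genes were taken by symbol from a table of 38918 genes, and each symbol matched 1 row. They are the basement membrane proteoglycans perlecan (Hspg2) and agrin (Agrn), the glypicans Gpc1, Gpc3, Gpc4 and Gpc6, and the syndecans Sdc1, Sdc2, Sdc3 and Sdc4. RNA was sequenced from whole hearts at embryonic day 11.5 on a C57/BL6 background, with 3 libraries per group. Controls were littermates with 1 floxed and 1 wild-type allele of Tie2 (gene symbol Tek), the angiopoietin receptor of endothelial cells. Conditional knockouts had both Tie2 alleles floxed and carried Nfatc1Cre, a recombinase expressed from Nfatc1, a gene of the endocardium, the inner lining of the heart. Both groups thus carried at least 1 floxed allele, and the labels name no Cre for the controls. The series title names endocardial sprouting and myocardial trabeculation as the processes of interest.

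The series text states 18 hearts per genotype, pooled and then parted into 3 replicates. Xist, which is transcribed in female cells, stood at 8.997, 40.7 and 0.0171 FPKM in control replicates 1 to 3 and at 32.9, 0.0295 and 0.0324 FPKM in the conditional knockouts, so libraries of a genotype were not equal portions of 1 pool. P-values therefore measure the spread between these libraries, whose independence is unclear. FPKM is a fragment count scaled by transcript length and library total, so that levels of different genes can be set side by side. The values summed to between 481334 and 582261 per library, 12647 to 13041 genes reached 1 FPKM, and the read depth is unknown. The 8 cardiomyocyte markers summed to between 9898 and 15002 FPKM, so the tissue matched its label. Tek was 6.71-fold lower in conditional knockouts, at 3.13 to 3.38 FPKM against 16.6 to 25.7 FPKM (adjusted p in limma = 0.00131).

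The core protein decides where the sugar chains sit. Perlecan and agrin are secreted into basement membranes, glypicans are held at the cell surface by a lipid anchor, and syndecans cross the membrane with a short cytoplasmic tail. The chains bind growth factors such as FGFs, VEGF, Wnts and BMPs and present them to their receptors. In the developing heart these proteoglycans lie in the basement membranes of the endothelium and myocardium and on the surfaces of the cells that face the cardiac jelly.

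All 10 transcripts were present in every library, and their levels spanned a 52.4-fold range of means. Gpc3, a glypican whose loss causes overgrowth in mice and humans, was by far the highest at 299.3 FPKM on average over the 6 libraries, which placed it at the 98.1th percentile of the 12988 genes that averaged 1 FPKM or more. Hspg2 followed at 53.6 FPKM and Agrn at 35.1 FPKM. Gpc1, Gpc4 and Sdc2 lay close together at 24.3, 21.6 and 20.98 FPKM, Sdc3 and Sdc1 at 16.8 and 16.2 FPKM, Sdc4 at 9.76 FPKM and Gpc6 lowest at 5.71 FPKM. In this order, Gpc3, Hspg2 and Agrn were each separated from the next gene by ranges that did not overlap. Gpc1 overlapped Gpc4 in range, although it was the higher of the pair in 6 of 6 libraries. Gpc4 and Sdc2 kept their order in 4 libraries, Sdc2 and Sdc3 in 5, and Sdc3 and Sdc1 in 4. The order of these neighbours thus varied between libraries, and no test between genes was run. Sdc1 was above Sdc4, and Sdc4 above Gpc6, in all 6 libraries with no overlap of ranges.

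**Figure D1:**
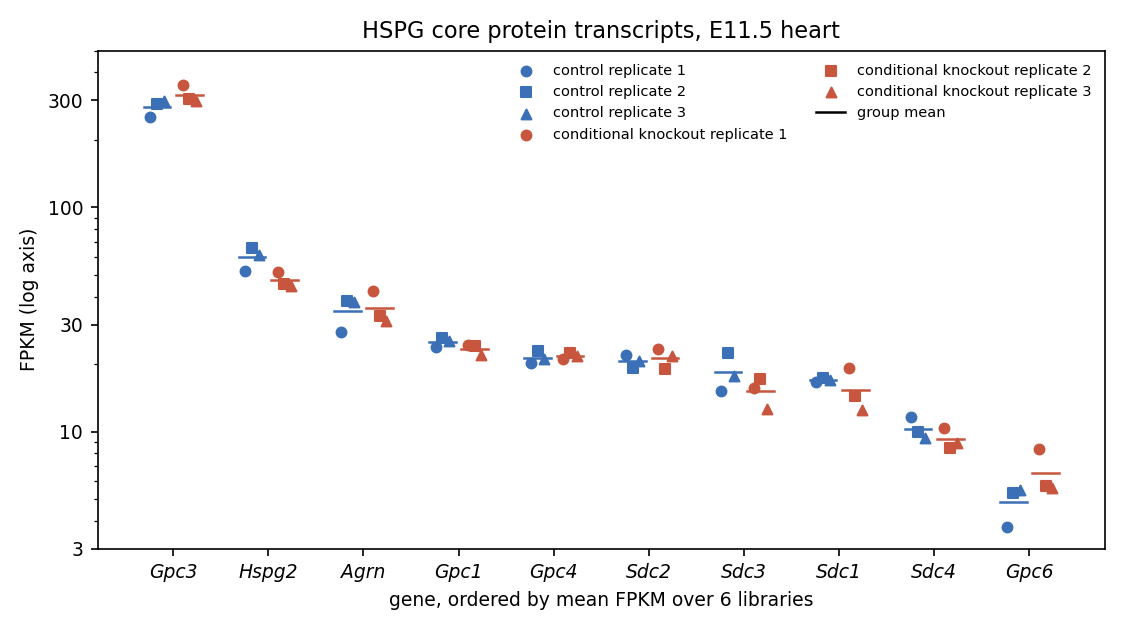
FPKM (log axis) of the 10 core protein genes, ordered by their mean, in 3 control libraries (blue) and 3 conditional knockout libraries (red); the marker shape gives the replicate number and short lines are group means. Gpc3 lies near 299.3 FPKM, far above the other genes, and the groups overlap for every gene except Hspg2 and Gpc6.

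No core protein gene passed the test between genotypes. The test was limma on log2(FPKM + 1), conditional knockout minus control, with p-values adjusted over all 12988 genes and a threshold of 0.05, and it called 23 genes in all, which is 0.177% of those tested (0.123% lower and 0.0539% higher). Among the 10 members none was called in either direction, and the lowest adjusted p was 0.742. At an unadjusted p under 0.05 the member count was 1, Hspg2, which was lower, against 6.68% of all genes (4.37% lower and 2.31% higher). Groups did not overlap for 2 members, Hspg2 (lower) and Gpc6 (higher), against 13.4% of all genes (8.17% lower and 5.23% higher). The median log2 fold change of the members was -0.04, with 5 below and 5 above 0, beside a median of -0.01 over all genes tested. When the libraries were scaled to 1 FPKM sum, 8 members lay below 0, but the median of all genes then stood at -0.13. The 95% interval of the fold change stayed within 1.5-fold in either direction for 7 members and reached past it for 3, Hspg2, Sdc3 and Gpc6.

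**Figure D2:**
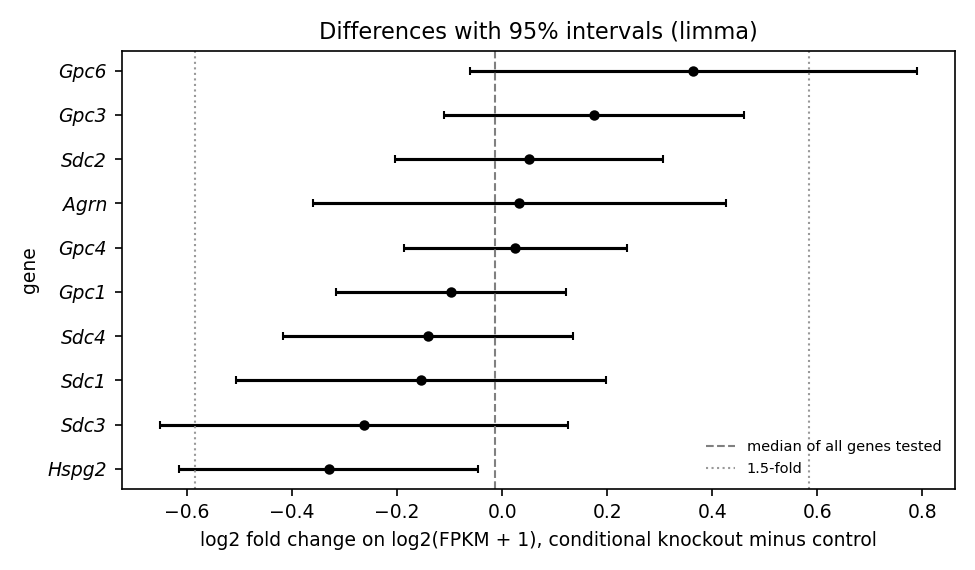
Log2 fold change of each core protein gene on the log2(FPKM + 1) scale (points) with the 95% interval from limma (bars), the median of all genes tested (dashed line) and 1.5-fold limits (dotted lines). The values run from -0.33 for Hspg2 to 0.36 for Gpc6, and Hspg2 alone has an interval that leaves out 0.

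Hspg2, which encodes perlecan, the large multidomain proteoglycan of vascular and other basement membranes, lies on chromosome 4 from 137468769 to 137570630 (GRCm38). It stood at 52.2, 66.1 and 61.2 FPKM in control replicates 1 to 3 and at 51.6, 45.5 and 44.6 FPKM in the conditional knockouts. Every conditional knockout library was below every control, although the closest pair, the replicate 1 libraries, differed by little. The means were 59.8 ± 7.05 and 47.3 ± 3.803 FPKM (SD, n = 3 each). The log2 fold change was -0.33 ± 0.12 (SE; 95% interval -0.62 to -0.05), with an unadjusted p of 0.0287 and an adjusted p of 0.742 in limma. Within replicates 2 and 3 alone it was -0.49 ± 0.07 (SE; 0.23 as adjusted p in limma). Over the 14 alternatives the value lay below 0 throughout, and no adjusted p was under 0.225. It was smallest without control replicate 2, at -0.26. In that fit the unadjusted p in limma was not under 0.05. The same held without control replicate 3, without conditional knockout replicate 2 and without conditional knockout replicate 3. It also held with quantile normalization and with Eif2s3y, a Y-linked gene, as covariate.

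Markers of the endocardium and endothelium were lower in the conditional knockouts as well. The summed level of 10 endocardial markers was 319 to 379 FPKM in controls and 204 to 255 FPKM in conditional knockouts, and that of 10 markers shared by endothelial cells in general was 282 to 331 and 213 to 235 FPKM. In each list 9 of the 10 markers had a log2 fold change below 0, and limma called 5 endocardial markers lower and none of the general ones. Of the 12988 genes tested, 6916 lay below 0 and 0.123% were called lower. Both lists were chosen with earlier results of these data known. Of 8 cardiomyocyte markers 7 lay below 0, against 3 of 7 tested epicardial and 1 of 8 cushion mesenchyme markers, with none called. All endocardial and general endothelial markers were detected at 1 FPKM or more. Log2 fold changes in the endocardial list ran from -1.35 (Tmem100) to 0.08 (Emcn). Those of the general list ran from -0.74 (Tie1) to 0.43 (Cldn5). The junctional cadherin gene Cdh5, at -0.71, lay at 44.6 to 56.5 FPKM in controls and 27.2 to 33.9 FPKM in conditional knockouts. The part of these markers in the Hspg2 result was not tested. In RNA of whole hearts, fewer cells of a type and less RNA per cell cannot be told apart.

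Agrn encodes agrin, which organises acetylcholine receptors at the neuromuscular junction and binds dystroglycan in other tissues. The gene is on chromosome 4 from 156165290 to 156197488. It was at 27.9, 38.1 and 38.0 FPKM in the control libraries against 42.5, 32.7 and 31.2 FPKM in conditional knockouts. The groups overlapped widely, because replicate 1 was the lowest control and also the highest conditional knockout. The log2 fold change was 0.03 ± 0.17 (SE; 0.983 as adjusted p in limma). Its sign turned on these libraries: it was -0.11 without control replicate 1, -0.10 without conditional knockout replicate 1 and -0.24 with replicates 2 and 3 alone (adjusted p = 0.393). Agrn transcripts amounted to 0.535, 0.576 and 0.621 of those of Hspg2 in controls and to 0.823, 0.719 and 0.6996 in conditional knockouts, ranges that did not overlap. Of the 9 ratios of Agrn to other members 2 did not overlap, those with Hspg2 and Gpc6, which did not overlap themselves. Of all pairs of tested genes above 0 in every library, 13.6% did not overlap, and the ratio was not tested.

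The glypicans made up most of the core protein transcripts. Gpc3 lies on chromosome X from 52272426 to 52613950, with Gpc4 beside it on the same strand from 52053021 to 52165252, a gap of 107 kb. Gpc3 was at 254, 289.7 and 299.8 FPKM in the control libraries against 351, 303 and 298 FPKM in conditional knockouts. Control replicate 3 reached the level of conditional knockout replicates 2 and 3, so the groups overlapped, and the log2 fold change was 0.17 ± 0.12 (SE; 0.815 as adjusted p in limma). It was 0.03 within replicates 2 and 3 and 0.10 without control replicate 1, as also without conditional knockout replicate 1. Gpc4, its neighbour, a modulator of Wnt and FGF signals, was at 20.3, 22.8 and 21.035 FPKM in the control libraries against 21.029, 22.4 and 21.8 FPKM in conditional knockouts. It had the narrowest spread of the 10 genes, with its highest library 1.12 times its lowest, and a log2 fold change of 0.03 ± 0.09 (SE; 95% interval -0.19 to 0.24). Gpc3 transcripts outnumbered those of Gpc4 per length by 12.5- to 14.3-fold in controls and by 13.5- to 16.7-fold in conditional knockouts.

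Liver transcripts, which differed between the libraries, were read beside Gpc3, a gene that fetal liver also expresses. The 12 liver markers summed to 96.3, 24.2 and 29.5 FPKM in controls and to 6.42, 261 and 2.95 FPKM in conditional knockouts, and no marker was at 0 in every library of a group. Afp, the alpha-fetoprotein gene, ran from 0.249 FPKM in conditional knockout replicate 3 to 123 FPKM in conditional knockout replicate 2. The part of liver RNA in the Gpc3 values was not tested.

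Gpc1, a widely expressed glypican, lies on chromosome 1 from 92831645 to 92860779. It was at 23.8, 26.2 and 25.5 FPKM in the control libraries against 24.4, 24.0 and 21.96 FPKM in conditional knockouts, with a log2 fold change of -0.10 ± 0.09 (SE; 0.846 as adjusted p in limma). Antisense genes and Ankmy1 overlap it on the other strand, and whether reads were counted by strand is not stated in the labels. Gpc6, a glypican needed for skeletal growth, lies on chromosome 14 from 116925315 to 117976544, next to Gpc5. It was at 3.77, 5.30 and 5.50 FPKM in the control libraries against 8.38, 5.75 and 5.58 FPKM in conditional knockouts. Each conditional knockout library was above every control, but replicates 2 and 3 of the conditional knockouts lay close to control replicate 3. The log2 fold change was 0.36 ± 0.18 (SE; 95% interval -0.06 to 0.79; adjusted p in limma = 0.773). It rested on the replicate 1 libraries, with 0.22 without control replicate 1, 0.20 without conditional knockout replicate 1 and 0.06 when replicates 2 and 3 stood alone. Gpc5, the neighbour of Gpc6, was at 0.0762 to 0.166 FPKM and too low to be tested.

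The syndecans lay within a narrow band of levels. Sdc2, the syndecan of mesenchymal and endothelial cells, lies on chromosome 15 from 32920723 to 33034935. It was at 21.96, 19.2 and 20.6 FPKM in the control libraries against 23.4, 19.1 and 21.7 FPKM in conditional knockouts, with a log2 fold change of 0.05 ± 0.11 (SE; 0.946 as adjusted p in limma). In both groups replicate 1 was highest and replicate 2 lowest. Sdc3, the syndecan of the nervous system and neural crest, lies on chromosome 4 from 130792537 to 130826319. It was at 15.2, 22.3 and 17.7 FPKM in the control libraries against 15.6, 17.1 and 12.6 FPKM in conditional knockouts. Its log2 fold change was -0.26 ± 0.17 (SE; 95% interval -0.65 to 0.13; adjusted p in limma = 0.808), and within replicates 2 and 3 it was -0.41 (adjusted p = 0.466). It was smaller without control replicate 2, at -0.12, and without conditional knockout replicate 3, at -0.15. The 7 neural crest and nerve markers summed to 11.1 to 11.7 FPKM in controls and to 9.43 to 13.8 FPKM in conditional knockouts. Antisense genes overlap Sdc3 and Gpc3 as well.

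Sdc1, the syndecan of epithelia, lies on chromosome 12 from 8771323 to 8793715. It was at 16.6, 17.3 and 16.98 FPKM in the control libraries against 19.2, 14.4 and 12.5 FPKM in conditional knockouts. The controls were nearly equal, and the conditional knockouts lay on both sides of them, with SDs of 0.355 and 3.46 FPKM (n = 3 each). The log2 fold change was -0.15 ± 0.15 (SE; 0.848 as adjusted p in limma). The size depended on single conditional knockout libraries: it was -0.32 without replicate 1 and -0.025 without replicate 3. Within replicates 2 and 3 it was -0.33 (adjusted p = 0.393). Sdc4, a widely expressed syndecan of focal adhesions, lies on chromosome 2 from 164424247 to 164443887. It was at 11.6, 9.91 and 9.34 FPKM in the control libraries against 10.4, 8.44 and 8.87 FPKM in conditional knockouts, with a log2 fold change of -0.14 ± 0.12 (SE; 0.824 as adjusted p in limma). Among same-numbered libraries, whose pairing is uncertain, the conditional knockout was the lower in all 3, as it also was for Hspg2. For Gpc6 it was the higher in all 3, and the count was not made for all genes. With the replicate number as a block the SE of Sdc4 was 0.078 and its adjusted p in limma 0.515. Single libraries moved the value from -0.059 (without control replicate 1) to -0.22 (without conditional knockout replicate 1).

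The extremes of the 10 genes fell in a few libraries. Conditional knockout replicate 1 was the highest library for 5 members, Agrn, Gpc3, Gpc6, Sdc1 and Sdc2, where it was highest for 17.2% of all genes tested. Control replicate 2 was highest for 4, Hspg2, Gpc1, Gpc4 and Sdc3, beside 17.1% of all genes. Control replicate 1 and conditional knockout replicate 3 were each lowest for 4 members, and for 26.4% and 20.5% of all genes. Control replicate 1 was also highest for 28.4% of all genes, but for 1 member, Sdc4. The same conditional knockout replicate 1 had the lowest cardiomyocyte marker sum, at 9898 FPKM against 13848 to 15002 FPKM in the other 5 libraries; the part of this difference in the member values was not tested.

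Shares within a library do not depend on how that library was scaled. The 10 core protein transcripts summed to 447 to 517 FPKM in controls and to 479 to 568 FPKM in conditional knockouts, which overlapped. Gpc3 made up 56.0% to 58.2% of this sum in controls and 61.5% to 62.3% in conditional knockouts. Hspg2 made up 11.7% to 12.8% in controls and 9.10% to 9.31% in conditional knockouts. Neither pair of ranges overlapped. The same held for Gpc1 (4.94% to 5.32% and 4.30% to 4.87%) and Gpc6 (0.844% to 1.07% and 1.16% to 1.48%), controls first. The shares of the remaining members overlapped, and no such count was made for all genes. Since shares of 1 sum are tied, a higher share of Gpc3 lowers the summed share of the other 9, though not each of them. With Gpc3 left out of the sum, Hspg2 was 27.0%, 29.1% and 28.3% of the other 9 transcripts in controls and 23.8%, 24.0% and 24.7% in conditional knockouts, again without overlap. The 4 syndecans together held 12.5% to 14.6% in controls and 11.6% to 12.1% in conditional knockouts. The glypicans held 66.5% to 68.2% and 71.3% to 72.6%, and the basement membrane proteoglycans 17.9% to 20.2% and 15.8% to 16.6%. None of these family ranges overlapped between groups.

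**Figure D3:**
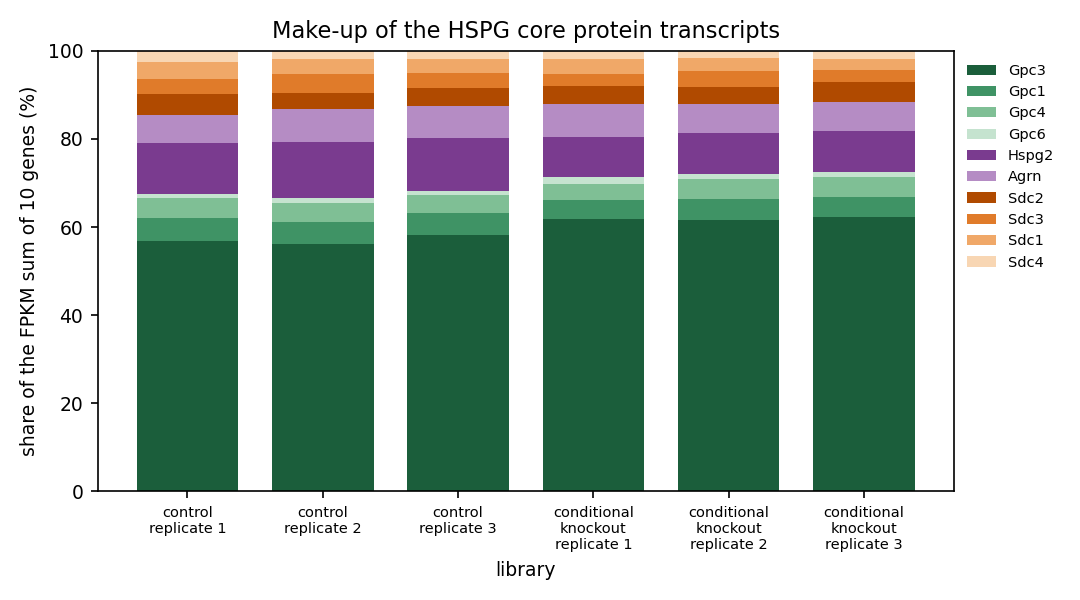
Share of each core protein gene in the FPKM sum of the 10 genes (%), one bar per library; greens are glypicans, purples the basement membrane proteoglycans and oranges the syndecans. Gpc3 fills 56.0% to 58.2% of the control bars and 61.5% to 62.3% of the conditional knockout bars, while the Hspg2 band is narrower in the conditional knockouts.

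The ratio of Gpc3 to Hspg2 was 4.86, 4.38 and 4.90 in controls and 6.80, 6.66 and 6.68 in conditional knockouts. It averaged 4.71 ± 0.29 in controls and 6.71 ± 0.0762 in conditional knockouts (SD, n = 3 each), and the groups did not overlap. This pair was picked after the values were seen, so the difference is a description with no test. Of the 45 ratios between members, which share 10 genes and are not independent, 16 did not overlap between groups (35.6%), beside 13.6% of all pairs of tested genes above 0 in every library. Gpc6 took part in 7 of the 16, Gpc3 in 6 and Hspg2 in 5, and only the ratio of Sdc2 to Sdc4 involved none of them. Each member enters 9 ratios, so a few genes can set the share of 35.6%. Its distance from 13.6% was not tested.

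Other core proteins, heparan sulphate pathway genes and partners of the core proteins were read from 7 lists with 75 genes, called pathway lists here. Of these genes, 61 reached a mean of 1 FPKM. None passed the test, 8 were lower and 1 was higher at an unadjusted p under 0.05 in limma (14.8% together, against 6.68% of all genes), and the groups did not overlap for 14 (23.0%, against 13.4%). Of the 8 lower genes, 2 were partners or sheddases and 3 were basement membrane partners, so these shares are not those of chain synthesis alone. Of the 61, 34 lay below 0 and 27 above.

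The largest differences among the tested genes of these lists were in other core proteins. Col18a1, which encodes the third basement membrane proteoglycan, collagen XVIII, was at 84.6, 109 and 94.3 FPKM in the control libraries against 56.8, 71.5 and 57.999 FPKM in conditional knockouts. All conditional knockout libraries were below all controls, with a log2 fold change of -0.62 ± 0.14 (SE; 0.333 as adjusted p in limma). Col18a1 was thus above Hspg2 in level in every library. Tgfbr3, betaglycan, a TGF-beta co-receptor that can carry heparan sulphate, had a log2 fold change of -0.43 ± 0.11 (SE, 0.425 as adjusted p), also without overlap. Gpc2, a glypican of the nervous system, was highest in this list at 0.47 ± 0.27 (SE, 0.798 as adjusted p); it stood at 6.49 FPKM in control replicate 1 and 19.6 FPKM in conditional knockout replicate 1, with the other 4 libraries between 10.7 and 11.4 FPKM. None of the 6 tested genes of this list was called, and their median was 0.04.

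No enzyme that builds the chains was called. In the list for the linker and chain polymerisation, 10 of 11 genes were tested and none called, with values from -0.12 (Extl3) to 0.17 (Xylt2) and a median of -0.02. Ext1 and Ext2, whose products together polymerise the chain, had log2 fold changes of -0.04 ± 0.11 and -0.05 ± 0.09 (SE). Among chain modifying enzymes 9 of 16 were tested and none called, with a median of 0.01. The rest averaged under 1 FPKM and were not tested. Of these, Hs3st4 was at 0.702, 1.10 and 0.627 FPKM in controls against 0.279, 0.194 and 0.293 FPKM in conditional knockouts. Near the floor, Hs3st5 (0 to 0.0504 FPKM over the libraries) and Hs6st3 (0.0289 to 0.126 FPKM) were also lower without overlap. Ndst3 (0.0625 to 0.183 FPKM) was higher without overlap, and Ndst4, Hs3st2 and Hs3st6 overlapped. How often genes under 1 FPKM do not overlap was not counted, so nothing is drawn from these values. Hs6st2, a 6-O-sulphotransferase, was at 16.99, 13.6 and 13.3 FPKM in the control libraries against 17.3, 18.8 and 19.9 FPKM in conditional knockouts (difference of 0.34 ± 0.12 on the log2 scale, SE, adjusted p in limma = 0.722). Its conditional knockout libraries were all above the controls, by the least between the replicate 1 libraries. Hs6st1, the most abundant of the list, was at -0.05 ± 0.09 (SE), and Ndst2, a deacetylase and sulphotransferase, had the lowest value at -0.15 ± 0.11 (SE).

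Donor supply and breakdown held no called gene either. All 7 genes of sugar and sulphate donor supply were tested, from -0.24 (Slc35b2, a carrier of the sulphate donor) to 0.10 (Slc26a2, a sulphate transporter), and Ugp2 was the most abundant at -0.03 ± 0.13 (SE). Of 11 genes that edit or break down the chains 9 were tested, with a median of 0.01. The extracellular 6-O-endosulphatase genes Sulf1 and Sulf2 had log2 fold changes of 0.29 ± 0.19 and 0.15 ± 0.17 (SE). Sulf2, the most abundant of the list, was at 65.6, 102 and 97.5 FPKM in the control libraries against 95.9, 96.8 and 96.9 FPKM in conditional knockouts, so that control replicate 1 alone stood apart. Hpse, the gene of the chain-cutting enzyme heparanase, lay between 0.411 and 0.713 FPKM and was too low to be tested. Naglu, a lysosomal enzyme, had the lowest value at -0.32 ± 0.12 (SE; 0.742 as adjusted p in limma).

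No partner of the core proteins was called. Of 12 partners and sheddases 10 were tested, 7 lay below 0, and the median was -0.08. Gipc1, an adaptor that binds the tail of Sdc4, was lowest at -0.33 ± 0.14 (SE; 0.755 as adjusted p in limma), Lrp4, an agrin receptor, highest at 0.20 ± 0.13 (SE), and Sdcbp, syntenin, the most abundant at -0.12 ± 0.11 (SE). Gipc1, Furin (-0.30 ± 0.11, SE) and Mmp14 (-0.28 ± 0.12, SE) were lower without overlap. That is 3 of 10 tested genes, against 8.17% of all genes. Of 11 basement membrane partners of perlecan 10 were tested, with a median of -0.06 and none called. Col4a1, a type IV collagen gene, was lowest at -0.41 ± 0.13 (SE, 0.652 as adjusted p in limma), and its libraries did not overlap between groups. Col4a2 (-0.34 ± 0.12, SE) and Nid1 (-0.32 ± 0.11, SE) were also lower without overlap. These were 3 of the 10 tested, against 8.17% of all genes, and of the 10, 6 lay below 0 and 4 above. Lama5 was highest at 0.22 ± 0.16 (SE), and Lamc1, the most abundant, was at -0.05 ± 0.13 (SE).

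**Figure D4:**
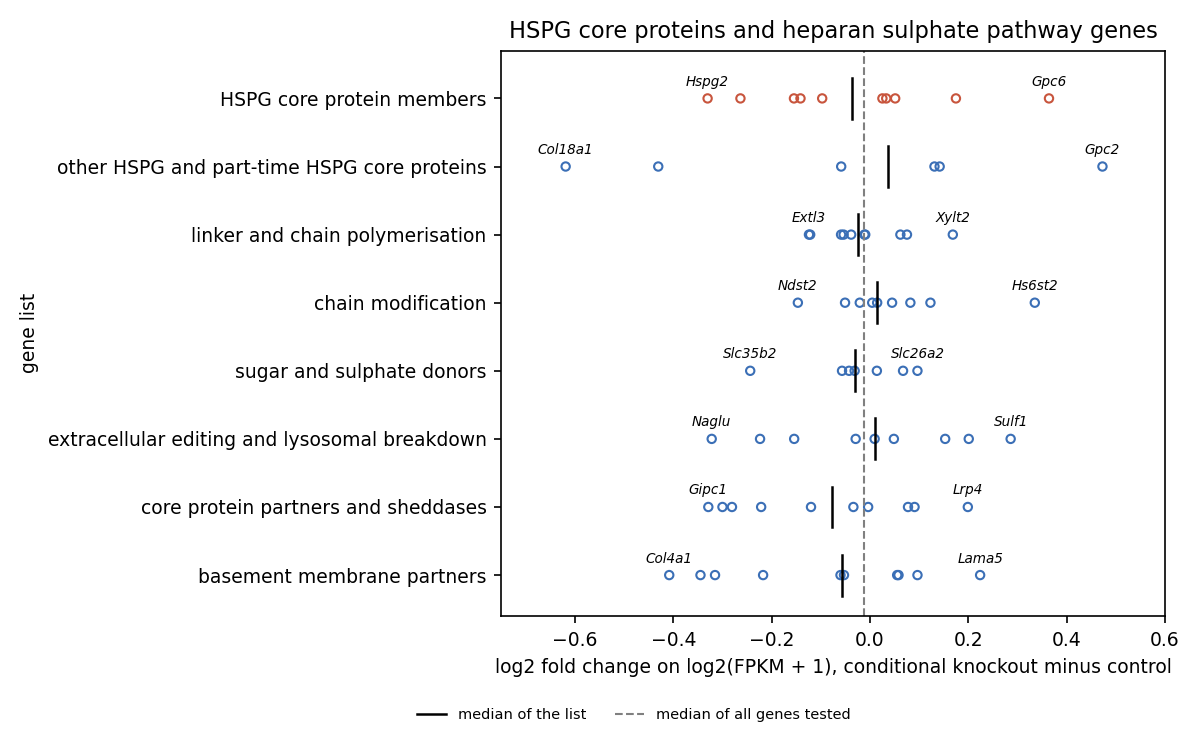
Log2 fold change on the log2(FPKM + 1) scale of the 10 core protein genes (red) and of the tested genes of 7 pathway lists (blue), with each list's median (black bar), the median of all genes tested (dashed line) and the lowest and highest gene named. Values run from -0.62 for Col18a1 to 0.47 for Gpc2, and no gene shown passed the test.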

How the data were processed

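The authors deposited 1 table of FPKM values for 6 libraries. The submitters' processing notes list the build mm10 and, without saying what each did, HTSeq, Cuffdiff, Cufflinks 2.2.1 and TopHat2 2.0.9. They state neither annotation nor strand setting, and an exact 0 can be a failed estimate. The globins Hbb-y and Hba-x were listed at 0 in all controls and at 11129 to 23965 FPKM in conditional knockouts, which affects library totals.

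Groups came from the sample titles. Values were tested as log2(FPKM + 1) over the 12988 genes that averaged 1 FPKM or more, using limma-trend (limma 3.58.1, R 4.3.3) and Benjamini-Hochberg adjustment over all of them; the fold change understates changes of low genes. The 10 members, 7 pathway lists and 9 marker lists were chosen with earlier results of these data known. Named were all members, Tek, Nfatc1 and, per pathway list, called genes or otherwise the most abundant, lowest and highest. Tgfbr3, Ext1, Ext2, Gpc5, Hpse and Sulf1 with Sulf2 as a pair were named after their values were seen. So were Cdh5, Furin, Mmp14, Nid1, Col4a2 and the untested chain modifying enzymes, and the lowest and highest endocardial and general endothelial markers. Nfatc1 was at 14.0 to 15.8 FPKM in controls and 10.2 to 11.9 FPKM in conditional knockouts (limma adjusted p = 0.333).

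Deviations from group means correlated across genes between same-numbered libraries at 0.27, 0.11 and 0.44 over 12805 genes above 0 throughout, and over all 12988 genes the second value was 0.031, so a pairing by number is uncertain. The reported fit has no block, and the fit with the replicate number as a block is an alternative. Replicate 1 libraries were set aside in 1 alternative as a possible batch: among genes under 0.3 FPKM, 7.27% to 11.0% shared 1 ratio between libraries of replicates 2 and 3, 1.26% to 1.58% where 1 library was a replicate 1, and 2.53% between both replicate 1 libraries, so that these are 1 batch is an assumption. Positions come from GENCODE M21 on GRCm38, which held 37607 of the 38918 identifiers. The fit was tested on simulated data.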

Additional observations from a re-analysis of the deposited data

How the results depend on the processing

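No member passed the threshold in any of 14 alternatives: of 140 member values none had an adjusted p under 0.05 in limma (0.225 to 1), 130 kept their sign and 10 changed it. All 224 recomputed counts for members and pathway lists were 0, as in the reported fit. Scaling libraries to 1 FPKM sum moved the median of all genes from -0.01 to -0.13, and on that scale Agrn (-0.095), Gpc4 (-0.10) and Sdc2 (-0.074) lay below 0 but above that median. It called 30 genes lower and 7 higher, against 16 and 7. With Eif2s3y, a Y-linked gene, as covariate Sdc1 (0.023) and Sdc4 (0.065) lay above 0, and 1 gene was called lower. Within replicates 2 and 3 Agrn was at -0.24, 8 genes were lower, and Tek was at -2.39 on the log2 scale (adjusted p = 0.0546). With no filter 2 genes were lower and 15 higher, and Tek was at -2.40 (adjusted p = 0.0718). Leaving out each library in turn gave 4 to 9 lower and 6 to 11 higher genes; Agrn ran from -0.11 to 0.12, Gpc4 from -0.0097 to 0.071 and Sdc2 from -0.012 to 0.13. With the replicate block no member's call changed, with Hspg2 at an adjusted p of 0.402, and 11 genes were lower and 6 higher. The cause of these shifts was not tested. Read depth is unknown, so the precision of low values such as Gpc6 cannot be given.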
